A study of Mus musculus with 12 samples.

Results

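The chemokines and chemokine receptors of CD8+ T cells were described from counts of RNA sequencing reads. Members were chosen by gene symbol, as the C-C, C-X-C, X-C and C-X3-C ligands, their receptors and the atypical receptors, and the rule used no measured value. Of the 24421 symbols in each count table, 61 members are described, made up of 39 ligands and 22 receptors. Of the receptors, 17 are conventional and 5 are atypical. A filter on low counts kept 17 members for testing, 7 ligands and 10 receptors, of 11727 genes tested in all. The cells were labelled as CD8+ T cells from the spleens of C57BL/6 mice. The 12 libraries fall into a control group given DMSO, the solvent, and a group given an EZH2 inhibitor (EZH2i), with 6 libraries in each. EZH2 is the enzyme of the Polycomb complex PRC2 that methylates histone H3 at lysine 27, a mark of silenced genes. Which inhibitor was given, at what dose and for how long, the age of the mice, the activation of the cells and whether libraries came from separate animals are not stated in the labels. What the p-values measure is therefore the library-to-library spread, part of which may be technical.

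Chemokines are small secreted proteins that guide cells along gradients and switch on integrin adhesion. They act on receptors with several membrane-spanning helices that signal through inhibitory G proteins to phosphoinositides, calcium and the actin cytoskeleton. Atypical receptors bind chemokines without signalling through G proteins, and by internalising or presenting them they shape the gradients. In CD8+ T cells, Ccr7 leads naive and central memory cells into lymph nodes, Cxcr3 leads effector cells into inflamed tissue, Cxcr6 holds cells in tissues, and the ligands Ccl3, Ccl4, Ccl5 and Xcl1 are made by the T cells themselves.

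Library totals ran from 17215483 to 28092434 counts in DMSO and from 19610258 to 31206228 counts in EZH2i. Levels are given in CPM, counts scaled to the TMM-adjusted library size, as mean ± SD over 6 libraries. The libraries that the labels number 6 in both groups stood apart from the rest in many members. In 34 groups of 6 values, formed by the 17 tested members in each group, a high or low value far from the others was found 11 times, and all 11 were in a library numbered 6. How often this holds over all tested genes was not counted. Members are therefore given with and without both of these libraries. T cell genes were high in every library, with the sum of 7 markers at 4147 to 5459 CPM in DMSO and 3026 to 4361 CPM in EZH2i, and 4 of the 7 were called lower. Cd8a, a chain of the CD8 coreceptor, averaged 1091 ± 31.1 CPM with DMSO and 885 ± 47.3 CPM with EZH2i (adjusted p = 0.00129, edgeR). The neutrophil list summed to 0.0432 to 0.298 CPM in DMSO and 0 to 0.209 CPM in EZH2i. The B cell list summed to 19.9 to 25.8 and 15.5 to 23.8 CPM, and the macrophage list to 2.68 to 6.19 and 2.69 to 5.42 CPM, with Fcgr1 and C1qa at 0 in all libraries. Natural killer cell markers summed to 375 to 499 CPM in DMSO and 395 to 698 CPM in EZH2i, with 2 of 3 tested called higher, Klrb1c and Gzma, and with Klra8 and Klra4 at 0. The dendritic cell list, most of whose sum is the member Ccr7, had 1 of 3 tested called higher, Itgax, at 0.513 ± 0.339 and 2.01 ± 0.741 CPM. The CD4 T cell list summed to 17.4 to 23.0 CPM in DMSO and 23.8 to 34.8 CPM in EZH2i, without overlap, with 1 of 2 tested called higher, Zbtb7b. The stroma and endothelium list summed to 88.7 to 196 and 63.0 to 185 CPM, with 1 of 3 tested called higher, Pdgfrb. Over all 11727 tested genes, 13.3% were called higher and 6.05% lower, and 7.50% had every EZH2i library above every DMSO library. The lists hold few tested genes, and a sum can rest on 1 gene that CD8+ T cells also express, as with Ccr7. Single calls and sums therefore do not describe a cell type or its share of the RNA. The part of these other cell type genes in the results below was not tested. In RNA from a mixed pool, fewer cells of a type and less RNA per cell cannot be told apart.

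Among the 17 tested members, 2 were called higher in EZH2i (Ccr10 and Ccl5) and 1 was called lower (Cxcr6), at an adjusted p under 0.05 in the quasi-likelihood test of edgeR. Over all 11727 tested genes, 13.3% were called higher and 6.05% lower, so these counts stand near the background. Ccr10 passed the filter on low counts only through its EZH2i libraries, and how many of all genes did so was not counted. The labels give both groups the replicate numbers 1 to 6. Whether the numbers pair libraries is not settled outside number 6. The share of all genes that were higher, or lower, in 6 of 6 same-numbered libraries was not counted. With the replicate number as a block, 6 members were called higher and 3 lower, against 24.7% and 24.3% of all genes. Without both libraries numbered 6, and with no block, 6 were again called higher and 3 lower, against 23.9% and 20.9%. Both of these fits added the same genes to the calls: Cxcr4, Ccr9, Ccl3 and Ccl4 as higher, and Cxcr3 and Cxcr5 as lower. In CPM, 1 of the 17 members had every EZH2i library above every DMSO library, Ccl5, against 7.50% of all tested genes. The reverse, every EZH2i library below every DMSO library, held for 0 of the 17, against 2.74%. At an unadjusted p under 0.05 there were 7 members of 17 and 3805 genes of 11727.

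**Figure D1:**
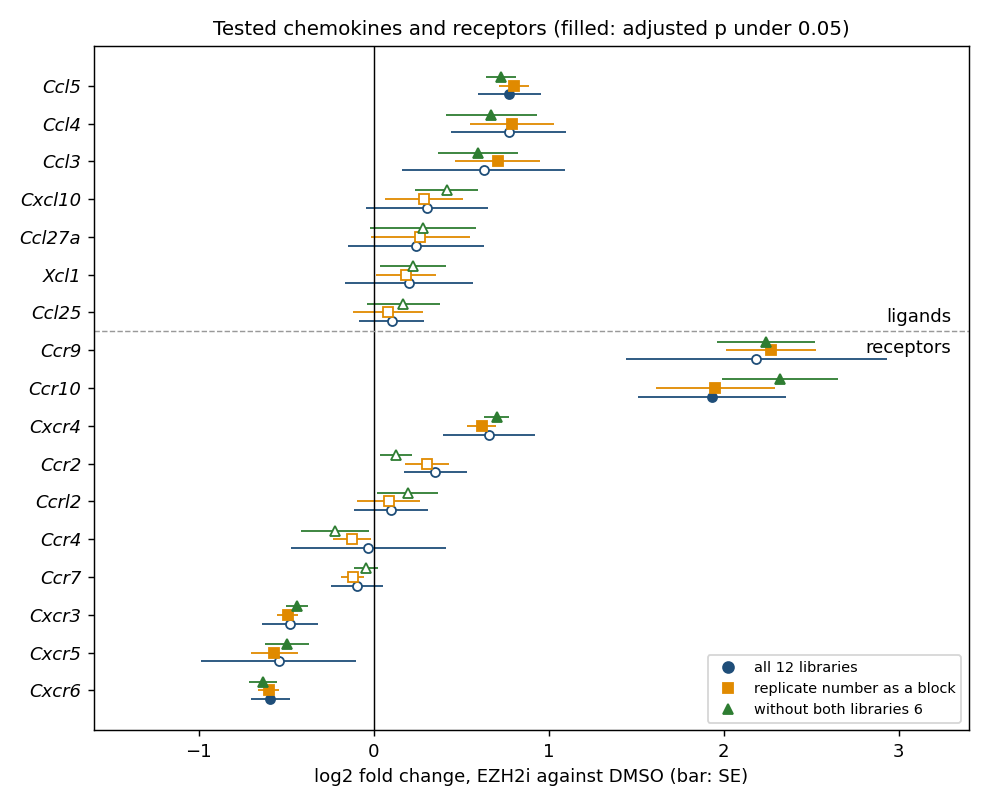
Log2 fold change of EZH2i against DMSO for the 17 tested members, ligands above receptors, with bars of 1 SE, from the fit of all 12 libraries, the fit blocked by replicate number and the fit without both libraries numbered 6. Filled symbols passed an adjusted p under 0.05. In the fit of all 12 libraries the 7 ligands lie above 0, and the receptors run from -0.59 (Cxcr6) to 2.19 (Ccr9).

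Cxcr6, the receptor for the membrane-bound ligand Cxcl16 and a mark of tissue-resident and effector CD8+ T cells, fell in EZH2i. DMSO libraries ran from 64.7 through a median of 77.3 to 90.7 CPM. EZH2i libraries ran from 42.0 through a median of 50.1 to 67.3 CPM. EZH2i libraries 1 to 5 lay below all DMSO libraries, and number 6 lay above the lowest DMSO library only. The mean went from 78.1 ± 8.71 to 51.9 ± 8.92 CPM, a log2 fold change of -0.59 (SE 0.11, adjusted p = 0.00247, edgeR), with EZH2i lower in 6 of 6 same-numbered libraries. The call held in all 19 other fits made, with adjusted p-values up to 0.00945.

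Ccr10, the receptor for Ccl27a and Ccl28 that leads lymphocytes to skin and mucosa, rose from a very low level. The lowest, median and highest values were 0.0924, 0.219 and 0.893 CPM in DMSO, and 0.883, 1.10 and 1.64 CPM in EZH2i. The high DMSO value belongs to library 6, and 5 of the 6 EZH2i libraries lay above all DMSO libraries. Single libraries held 2 to 15 counts in DMSO and 26 to 53 in EZH2i. Ccr10 thus passed the filter on low counts only through the group in which it is high, and its call is to be read with that limit. The group means were 0.316 ± 0.2997 and 1.18 ± 0.298 CPM, from 40 and 189 counts in all, and the log2 fold change was 1.93 (SE 0.42, adjusted p = 0.00590, edgeR). Without both libraries numbered 6 it was 2.32 (adjusted p = 2.94e-05, edgeR). All of Ccr10 lies within the span of Cntnap1 on the opposite strand, with 0 exonic bases shared. Cntnap1, which encodes an axonal adhesion protein, was called higher as well, from 0.875 ± 0.447 to 4.38 ± 0.6253 CPM (a difference of 2.34 on the log2 scale, SE 0.28, adjusted p = 8.04e-05, edgeR). Whether the counting used strand is not stated, so reads from both genes may not be separated, and the part of Cntnap1 in the Ccr10 value was not tested.

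Cxcr3, the receptor for Cxcl9 and Cxcl10 on effector T cells, was close to the threshold. Its levels ran from 99.0 through a median of 147 to 163 CPM in DMSO and from 58.6 through a median of 108 to 116 CPM in EZH2i. In both groups library 6 was the lowest. Without those, DMSO ran above every EZH2i library, at 149 ± 13.8 and 109 ± 4.38 CPM (SD, n = 5 each), and the share of all genes that do so was not counted. Over 6 against 6 the log2 fold change was -0.48 (SE 0.16, adjusted p = 0.0530, edgeR), and EZH2i was lower in 6 of 6 same-numbered libraries. It was called with the replicate block (-0.49, adjusted p = 8.07e-06, edgeR) and without both libraries numbered 6 (-0.44, adjusted p = 2.56e-05, edgeR). RLE scaling, no filter and DESeq2 also called it, at adjusted p-values of 0.0416, 0.0388 and 0.0170, as did the fits without DMSO library 6 (0.0154) or without EZH2i library 6 (0.0203). Upper-quartile scaling did not call it (0.104), nor did the other 10 fits without 1 library (0.0593 to 0.0976).

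Cxcr4, the receptor for Cxcl12 in bone marrow and lymphoid stroma, had larger values in EZH2i in each same-numbered pair. Its levels ran from 61.2 through a median of 127 to 144 CPM in DMSO, and from 67.8 through a median of 207 to 222 CPM in EZH2i. Libraries numbered 6 gave the lowest value in both groups, and the other 5 EZH2i libraries, from 192 CPM up, lay above all DMSO libraries. The log2 fold change over 6 against 6 was 0.66 (SE 0.26, adjusted p = 0.102, edgeR), so the difference did not pass the test. Within number 6 the log2 ratio was 0.15. The gene was called with the replicate block (0.62, adjusted p = 1.75e-05, edgeR), without both libraries numbered 6 (0.70, adjusted p = 5.71e-07, edgeR) and without EZH2i library 6 alone (0.83, adjusted p = 0.00213, edgeR).

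Ccr9, the gut-homing receptor for Ccl25, was low in every library and at 0 in both libraries numbered 6. A count of 0 there allows up to 0.179 CPM in DMSO 6 and 0.0929 CPM in EZH2i 6, at 3 counts. The other DMSO libraries held 0.258 to 1.07 CPM and the other EZH2i libraries 2.37 to 3.87 CPM, with no overlap. The share of all genes that separate so without both libraries numbered 6 was not counted. Summed over libraries there were 77 counts in DMSO and 406 in EZH2i. The log2 fold change over 6 against 6 was 2.19 (SE 0.74, adjusted p = 0.0564, edgeR), short of the threshold. It was called with DESeq2 (2.21, adjusted p = 0.0274), with the replicate block (2.27, adjusted p = 4.54e-06, edgeR), without both libraries numbered 6 (2.24, adjusted p = 6.55e-06, edgeR) and without EZH2i library 6 alone (2.45, adjusted p = 0.000676, edgeR).

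**Figure D2:**
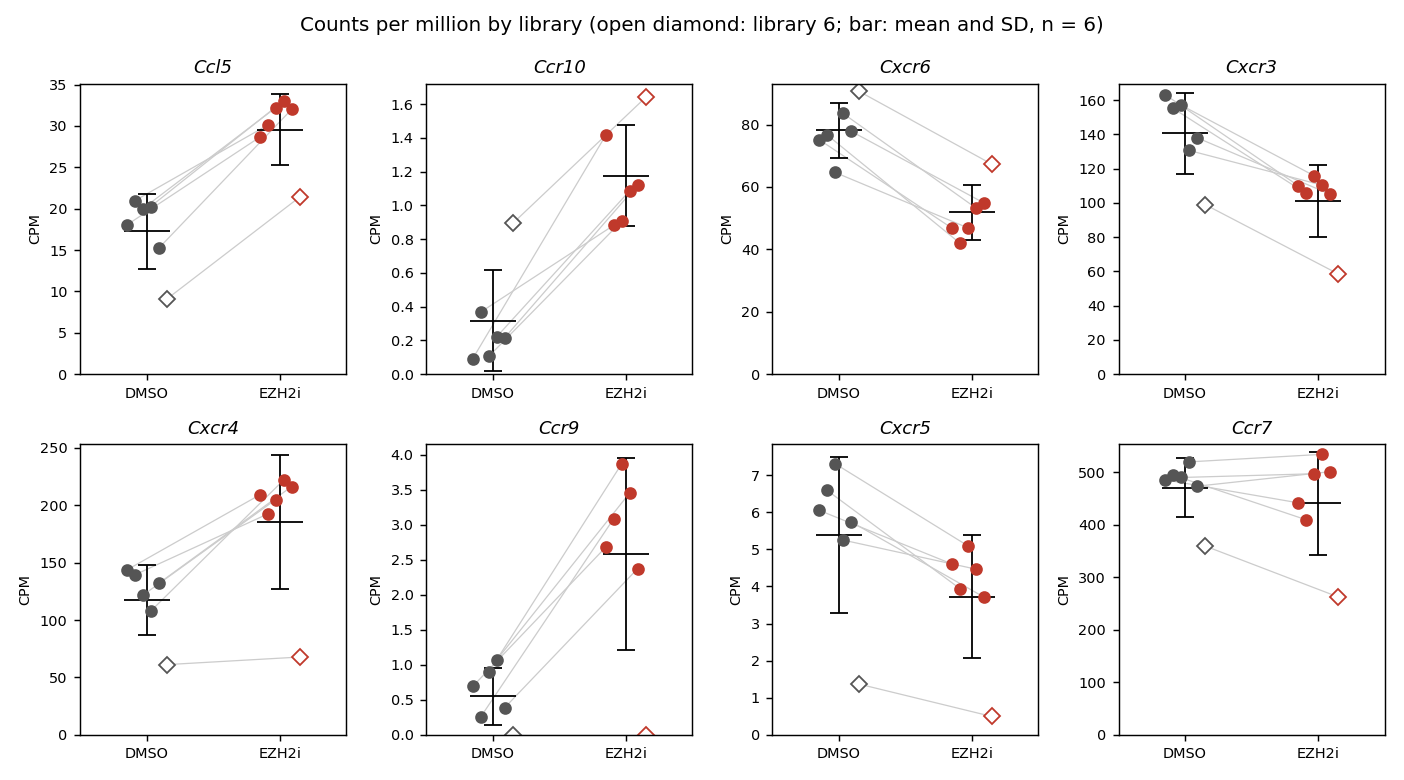
CPM in each of the 12 libraries for Ccl5, Ccr10, Cxcr6, Cxcr3, Cxcr4, Ccr9, Cxcr5 and Ccr7, with the mean and SD of each group and the libraries numbered 6 as open diamonds. Ccl5 does not overlap between the groups, and the libraries numbered 6 sit apart in Cxcr4, Ccr9, Cxcr5 and Cxcr3.

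Ccr7, the receptor for Ccl19 and Ccl21 that brings naive and central memory cells into lymph nodes, had the highest level of the family. Its levels ran from 360 through a median of 488 to 520 CPM in DMSO and from 263 through a median of 470 to 534 CPM in EZH2i. The log2 fold change was -0.093 (SE 0.15, adjusted p = 0.714, edgeR), and the groups overlapped over nearly their whole range. Cxcr5, which leads cells to B cell follicles, ran from 1.37 through 5.90 to 7.31 CPM in DMSO and from 0.495 through 4.20 to 5.09 CPM in EZH2i, with the libraries numbered 6 lowest in both. Its log2 fold change was -0.54 (SE 0.44, adjusted p = 0.440, edgeR), with lower values in EZH2i in 6 of 6 same-numbered libraries, and it was called with the replicate block (-0.57, adjusted p = 0.00235) and without both libraries numbered 6 (-0.50, adjusted p = 0.00418, edgeR). The groups overlap in Cxcr5 because of DMSO library 6, the only DMSO library under 5 CPM.

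Ccr2, the monocyte and effector cell receptor for Ccl2, ran from 17.2 through 21.7 to 26.8 CPM in DMSO and from 23.1 through 24.4 to 48.2 CPM in EZH2i. Library EZH2i 6 was the high one, and the log2 fold change of 0.35 (SE 0.18, adjusted p = 0.202, edgeR) became 0.13 without both libraries numbered 6. Ccr4, the receptor for Ccl17 and Ccl22, ran from 4.47 through 6.80 to 17.7 CPM in DMSO and from 4.19 through 5.58 to 20.9 CPM in EZH2i. The high value was library 6 in both groups, and the log2 fold change was -0.031 (SE 0.44, adjusted p = 0.972, edgeR). Without both libraries numbered 6 the Ccr4 change was -0.22 (adjusted p = 0.365, edgeR). Ccrl2, an atypical receptor that presents chemerin, averaged 1.96 ± 0.2396 and 2.11 ± 0.634 CPM (0.097 on the log2 scale, adjusted p = 0.791, edgeR).

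Ccl5, an inflammatory chemokine that memory and effector CD8+ T cells make and release with their granules, rose in EZH2i. Its lowest, median and highest levels were 9.05, 19.0 and 20.9 CPM in DMSO and 21.4, 31.05 and 33.0 CPM in EZH2i. Every EZH2i library lay above every DMSO library, and library 6 was the lowest in both groups. The mean went from 17.2 ± 4.52 to 29.6 ± 4.31 CPM, a log2 fold change of 0.77 (SE 0.18, adjusted p = 0.00850, edgeR). The call held in all 19 other fits, with adjusted p-values up to 0.0235.

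Ccl3 and Ccl4, inflammatory chemokines made upon T cell activation, were near the bottom of the measured range. Ccl3 ran from 0.0595 through a median of 1.36 to 2.17 CPM in DMSO and from 0.681 through 1.94 to 2.93 CPM in EZH2i, with overlap. Its log2 fold change was 0.63 (SE 0.46, adjusted p = 0.392, edgeR). Ccl4 ran from 0.238 through 1.02 to 1.29 CPM and from 1.01 through 1.45 to 2.55 CPM, with larger values in EZH2i in 6 of 6 same-numbered libraries. Its log2 fold change was 0.77 (SE 0.33, adjusted p = 0.124, edgeR). With the replicate block both were called, Ccl3 at 0.71 (adjusted p = 0.0234) and Ccl4 at 0.79 (adjusted p = 0.0127, edgeR). Both were also called without the libraries numbered 6, at 0.60 (adjusted p = 0.0416) and 0.67 (adjusted p = 0.0436, edgeR).

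The other tested ligands did not pass the test in any of these fits. Xcl1, which draws cross-presenting dendritic cells through Xcr1, ran from 0.655 through 2.39 to 2.65 CPM in DMSO and from 0.774 through 2.48 to 4.08 CPM in EZH2i (0.20 on the log2 scale, adjusted p = 0.747, edgeR). Cxcl10, a Cxcr3 ligand that interferon induces, was at 1.08 ± 0.267 and 1.36 ± 0.545 CPM (0.31, adjusted p = 0.598, edgeR). Of its EZH2i libraries, 5 lay above all DMSO libraries and library 6 lay below them all. Without both libraries numbered 6 the Cxcl10 change was 0.42 (adjusted p = 0.0728, edgeR). Ccl27a, the skin ligand of Ccr10, was at 0.735 ± 0.365 and 0.888 ± 0.425 CPM (0.24, adjusted p = 0.718, edgeR). Ccl25, the ligand of Ccr9, was at 1.53 ± 0.229 and 1.64 ± 0.395 CPM (0.10, adjusted p = 0.748, edgeR).

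**Figure D3:**
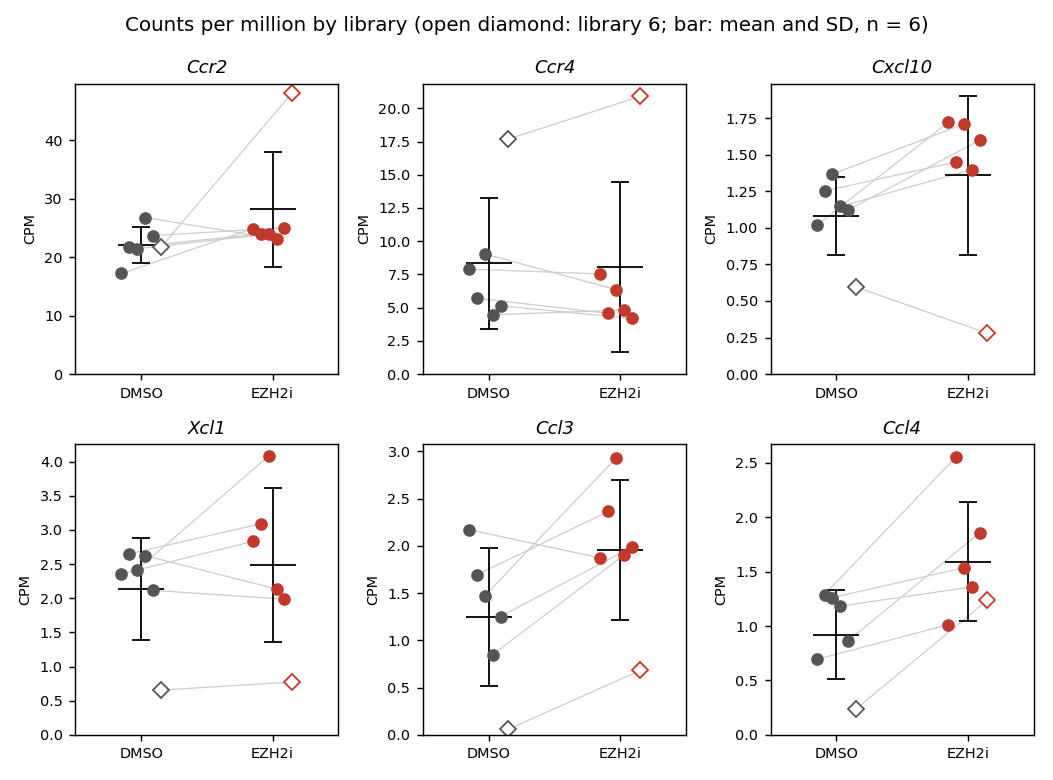
CPM in each of the 12 libraries for Ccr2, Ccr4, Cxcl10, Xcl1, Ccl3 and Ccl4, with the mean and SD of each group and the libraries numbered 6 as open diamonds. The groups overlap in each gene, and library 6 is the high one for Ccr4 in both groups.

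Set side by side, all 7 tested ligands had a log2 fold change above 0, with a median of 0.31 and a range of 0.10 to 0.77. Of the 10 receptors, 5 were above 0, with a median of 0.033 and a range of -0.59 to 2.19. The median over all tested genes was -0.013, with 5630 of 11727 above 0. Of the ligands, 1 was called higher and 0 lower. Of the receptors, 1 was called higher and 1 lower, with the conventional receptors alone at a median of -0.031. Upper-quartile scaling moved the median of all genes to 0.049 and put 7 ligands and 6 receptors above 0, with the conventional receptors at a median of 0.030, and RLE scaling kept the split at 7 and 5. The ligand count was 6 of 7 when EZH2i library 2 or 5 was left out. With the replicate block the medians were 0.29 and -0.017, and without both libraries numbered 6 they were 0.42 and 0.042. Single libraries moved the ligand median by over 1.5 times: it was 0.50 without DMSO library 4, 0.52 without EZH2i library 6 and 0.19 without DMSO library 6. In the last of these the receptors also had a median of 0.19, and the conventional receptors had 0.33, above the ligands. A test of ligands against receptors was not made, and the members are too few to describe the families at large.

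Levels between genes can be compared only per length, here as CPM per kilobase of union exon length. In DMSO the order began with Ccr7 at 238 ± 28.5, Cxcr3 at 81.2 ± 13.7, Cxcr4 at 65.0 ± 16.9 and Cxcr6 at 40.5 ± 4.51, followed by Ccl5 at 18.0 ± 4.71. Below these came Xcl1 at 4.09 ± 1.44 CPM per kilobase. The ranges of Cxcr3 and Cxcr4 over the DMSO libraries overlap, although Cxcr3 stood above Cxcr4 within each of the 6 libraries. In EZH2i Cxcr4 stood at 103 ± 32.3 and Cxcr3 at 58.3 ± 12.2 CPM per kilobase, with Ccl5 at 30.8 ± 4.49 and Cxcr6 at 26.9 ± 4.62, so in both pairs the order of the means was the reverse of that in DMSO. The lowest tested members in DMSO were Ccr9, at 0.0537, and Ccr10, at 0.183 CPM per kilobase. In EZH2i the lowest were Ccl25, at 0.220, and Ccr9, at 0.251, and Ccr10 stood at 0.681 CPM per kilobase. The exon length of Ccr9, 10.26 kilobases, takes in long isoforms and understates its level. Summed per length, the tested receptors came to 330.4 to 466 CPM per kilobase in DMSO and 254 to 492 in EZH2i. Ccr7 made up 52.7% to 58.5% of that sum in DMSO and 51.2% to 54.8% in EZH2i. Cxcr4 made up 10.2% to 17.03% and 14.7% to 26.5%, and Cxcr3 made up 16.8% to 20.2% and 12.9% to 15.1%. The tested ligands summed to 11.7 to 32.2 CPM per kilobase in DMSO and 27.0 to 48.8 in EZH2i, of which Ccl5 took 66.8% to 80.2% and 68.6% to 82.6%.

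**Figure D4:**
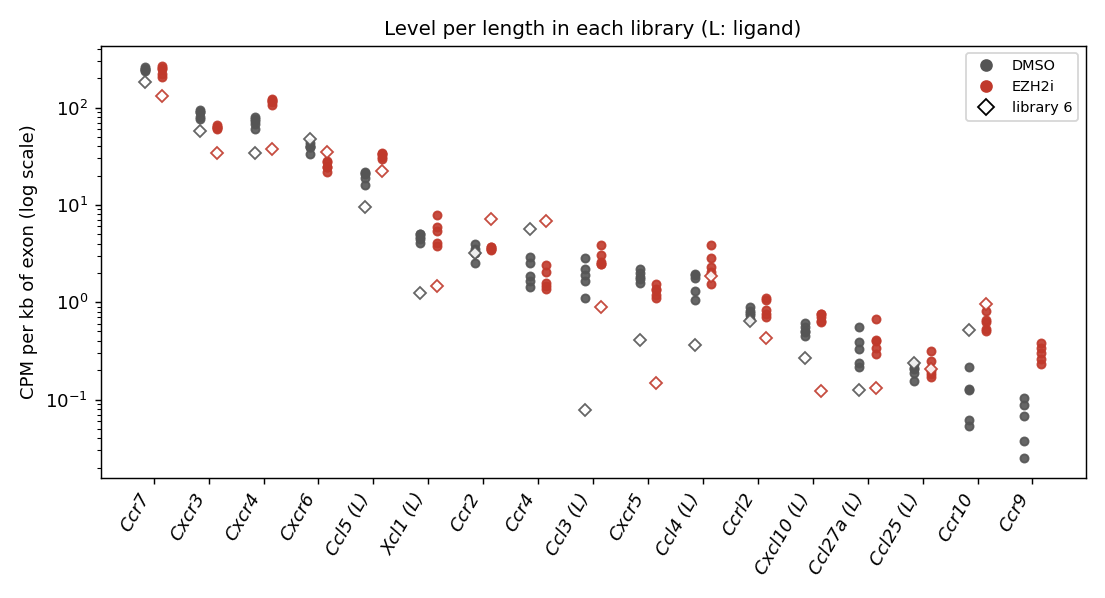
CPM per kilobase of exon for the 17 tested members in each library, on a log axis and ordered by the DMSO mean, with DMSO and EZH2i side by side. Ccr7 has the highest mean in both groups, Ccr9 the lowest in DMSO and Ccl25 the lowest in EZH2i, and values of 0 (Ccr9 in both libraries numbered 6) are not drawn.

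The family is clustered in the genome, and 60 of the 61 members were found in the GENCODE M21 annotation of GRCm38, Ccl21c being the exception. The largest groups are 14 members on chromosome 11, 13 on chromosome 9 and 11 on chromosome 5. The receptor cluster of chromosome 9 includes Ccr9, Cxcr6, Xcr1, Ccr1, Ccr3 and Ccr2. Measured from the start of Cxcr6 (chr9:123806475-123811760, plus strand), the outermost annotated start of Ccr9 lies 128 kilobases before it and Ccr2 lies 295 kilobases after it. The RefSeq start of Ccr9 used for its promoter window below, at 123767211, is nearer to Cxcr6, and the span of Ccr9 ends at 123784330. Of the receptors in this cluster, Cxcr6 was called lower, with a log2 fold change of -0.59, while Ccr9 (2.19) and Ccr2 (0.35) did not pass the test. Genes of other families in and around the cluster were Lztfl1, which overlaps the span of Ccr9 (0.64, adjusted p = 0.232, edgeR), Fyco1 (0.37, adjusted p = 0.163), Limd1 (-0.17, adjusted p = 0.195), Sacm1l (-0.056, adjusted p = 0.597) and 2010315B03Rik (0.063, adjusted p = 0.857). With the replicate block Lztfl1 (adjusted p = 0.000325) and Fyco1 (adjusted p = 0.000793, edgeR) were called higher, and Limd1 was called lower (-0.16, adjusted p = 0.0368, edgeR). Cxcr6 lies within the span of Fyco1 on the opposite strand and shares 0 exonic bases with it.

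**Figure D5:**
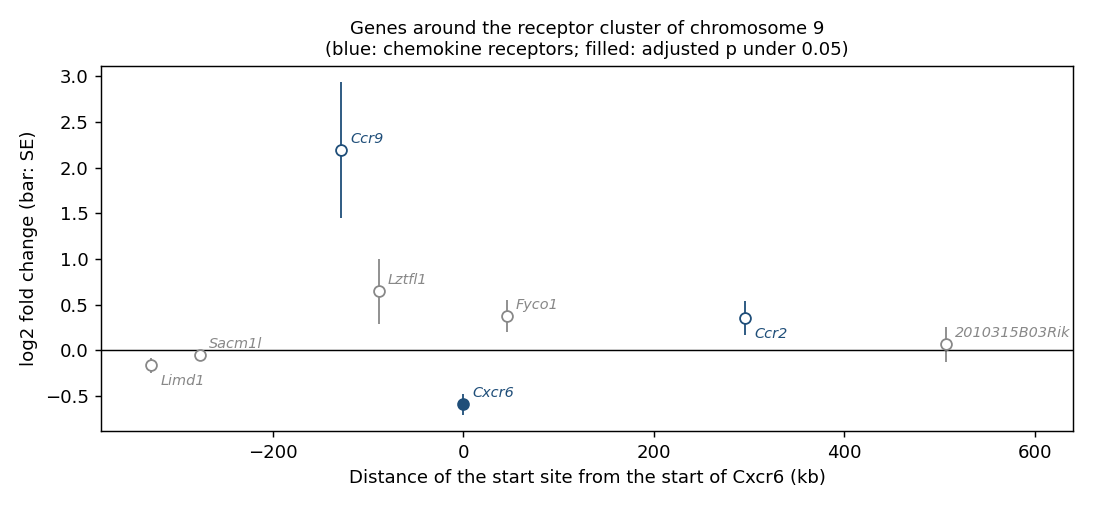
Log2 fold change of EZH2i against DMSO, with bars of 1 SE, for the genes named above in and around the receptor cluster, against distance in kilobases from the start of Cxcr6. Cxcr6 lies below 0 between Ccr9, drawn at its outermost annotated start 128 kilobases to the left, and Ccr2 to the right.

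Other positions on GRCm38 are Ccl5 at chr11:83525778-83530518, minus strand, and Ccr10 at chr11:101172997-101175443, minus strand. Cxcr4 lies at chr1:128588199-128592293, minus strand, Cxcr3 at chrX:101731535-101734269, minus strand, and Ccr9 at chr9:123678439-123784330, plus strand. Some members share sequence with another gene, so the counting could split or drop their reads. This depends on the strand setting and on how overlapping genes and multi-mapping reads were handled, which are not stated. The share of 75-base words that transcripts of other genes also hold, on either strand, was 33.3% for Ccl27a, 19.3% for Ccr9, 5.79% for Xcl1 and 2.47% for Cxcl10. It was 1.48% for Ccl25, 1.16% for Ccr2 and 1.11% for Cxcr5. For Ccr9, Xcl1, Cxcl10, Ccl25 and Cxcr5 the other genes overlap the member at the same place in the genome, so strand and overlap handling matter there. For Ccl27a and Ccr2 they lie elsewhere, so multi-mapping matters. Ccr9 shares 1932 exonic bases, 18.8% of its exons, with AC165425.1 on the opposite strand. These members are uncertain for that reason, Ccr9 and Ccl27a most.

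Promoter windows of Cxcr6, Ccr9, Cxcr3 and Cxcr4 are shown because PRC2 is known to gather at promoters rich in CpG, although no binding or mark was measured here. RefSeq promoter windows matched 46 of the 61 members and 12 of the 17 tested, the others being Ccl5, Ccr10, Ccr7, Ccl4 and Cxcr5. Each sequence is the 250 bases before the start site on GRCm38.p6, written in the direction of the gene, with every CpG in capitals. They come from chr9:123806227-123806476 (Cxcr6, plus strand), chr9:123766961-123767210 (Ccr9, plus strand), chrX:101734148-101734397 (Cxcr3, minus strand) and chr1:128592300-128592549 (Cxcr4, minus strand).
Cxcr6: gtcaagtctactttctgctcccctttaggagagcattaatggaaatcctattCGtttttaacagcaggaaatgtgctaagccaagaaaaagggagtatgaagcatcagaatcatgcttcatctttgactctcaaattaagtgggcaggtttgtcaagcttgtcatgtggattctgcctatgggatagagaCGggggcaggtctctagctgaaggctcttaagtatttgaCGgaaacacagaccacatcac
Ccr9: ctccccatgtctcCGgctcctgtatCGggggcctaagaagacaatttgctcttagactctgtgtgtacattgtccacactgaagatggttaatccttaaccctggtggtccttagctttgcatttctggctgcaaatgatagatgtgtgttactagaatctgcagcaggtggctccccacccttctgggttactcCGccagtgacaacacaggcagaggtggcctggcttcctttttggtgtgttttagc
Cxcr3: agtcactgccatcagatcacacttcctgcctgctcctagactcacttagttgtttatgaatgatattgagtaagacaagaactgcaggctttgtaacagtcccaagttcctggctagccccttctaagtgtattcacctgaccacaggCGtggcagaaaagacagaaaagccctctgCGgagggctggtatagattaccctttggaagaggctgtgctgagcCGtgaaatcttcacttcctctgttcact
Cxcr4: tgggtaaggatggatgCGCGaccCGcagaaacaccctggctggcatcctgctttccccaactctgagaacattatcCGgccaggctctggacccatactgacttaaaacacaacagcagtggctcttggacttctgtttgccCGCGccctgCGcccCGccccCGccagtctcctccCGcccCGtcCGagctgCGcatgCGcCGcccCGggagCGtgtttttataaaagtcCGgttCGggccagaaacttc
The Cxcr4 window holds 19 CpG, more than 80.3% of the 32851 RefSeq windows of this length. The Cxcr6, Ccr9 and Cxcr3 windows hold 3 CpG each, with 29.0% of windows holding fewer. The median over all windows was 6, with quartiles of 2 and 16. Of the tested members not shown, Ccl25 has a window with 45 CpG, more than 99.6% of windows, and another with 0. Ccl27a has windows with 4, 6 and 12 CpG, and neither of these ligands was called. The remaining tested members with a window hold from 1 (Ccr2) to 7 CpG (Ccrl2). A relation between CpG and the change in level was not tested. Searched on both strands, the Runx-type motif TGTGGT occurred in 4 of the 12 tested members with a window, Ccl3, Cxcr3, Cxcr6 and Xcl1, and in 14.0% of all windows. The T-box motif TCACACCT occurred in 0 of the 12 and 1.12% of all windows, and the E-box CACGTG in 0 of the 12 and 6.02%. Members are counted by gene, with a match in any window, and Ccl25, Ccl27a and Ccrl2 have several windows. The shares of all windows are per window, so counts and shares are not in like units. A match is a description of letters and not a binding site.

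The 44 members that were not tested had few counts. Of these, 18 had 0 counts in all libraries, 12 had 1 to 9 and 14 had 10 or more. The ligands make up 32 of the 44, with 17 at 0, and the receptors 12, with Ackr4 alone at 0. Over a whole group of libraries, 0 counts allow up to 0.0223 CPM in DMSO and 0.0186 CPM in EZH2i, at 3 counts. The highest total, 136 counts, belonged to Cx3cr1, the fractalkine receptor of terminal effector cells, with 34 counts in DMSO and 102 in EZH2i (adjusted p = 0.0661 with no filter, edgeR). With no filter, 0 of the 26 untested members that could be fitted were called. Receptors with at least 10 counts in a group were Ackr1 (13 in DMSO and 40 in EZH2i), Ccr1 (14 and 31), Ccr8 (9 and 39), Cxcr2 (25 and 51) and Xcr1 (20 and 10). Ligands with at least 10 were Ccl6 (43 and 66), Ccl9 (16 and 15), Ccl28 (5 and 18) and Cxcl16 (21 and 48). These pairs of sums were not tested with the filter, and the depth does not settle them.

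Genes that carry the signal of these receptors were counted from lists chosen with earlier results of these data known, so their counts are descriptions, to be read against the 13.3% of all genes called higher and 6.05% called lower, or 24.7% and 24.3% with the replicate block. Of 13 tested G proteins and effectors, 5 were called higher and 0 lower, and their median on the log2 scale was 0.12, with 6 and 1 called with the block. The 1 lower with the block was Gnai2, an inhibitory alpha subunit named here after its values were seen, at -0.29 (adjusted p = 0.000365 with the block and 0.0805 without it, edgeR). The genes called higher include Gnaq, a G protein alpha subunit, with 10.7 ± 1.76 CPM under DMSO and 18.2 ± 4.002 CPM under EZH2i (0.78 on the log2 scale, adjusted p = 0.00227, edgeR), and Plcb3 and Plcb2, phospholipases that such signals activate (0.60, adjusted p = 0.000121, and 0.45, adjusted p = 0.000956). Ptk2b, a calcium-dependent kinase, was higher by 0.35 (adjusted p = 0.0327, edgeR). Of 13 receptor kinases, arrestins and Rgs proteins, which end the signal, 2 were called higher and 2 lower, with a median of 0.072, and with the block 4 and 3. Adrbk2, a kinase that marks receptors for arrestin, went from 0.113 ± 0.0763 to 2.62 ± 0.289 CPM (4.57, adjusted p = 3.37e-06, edgeR), and Arrb1 from 44.4 ± 3.95 to 66.6 ± 6.80 CPM (0.58, adjusted p = 0.000353). Like Ccr10, Adrbk2 passed the filter on low counts only through its EZH2i libraries. Rgs19 and Arrb2 fell (-0.24, adjusted p = 0.0276, and -0.22, adjusted p = 0.0199, edgeR).

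Of the 17 genes of the actin and adhesion arm, which turn the signal into movement and integrin binding, 0 were called higher and 5 lower, with a median of -0.18, and with the block 0 and 11. Over all genes 6.05% were called lower, and 24.3% with the block. The small GTPases Rac1 and Cdc42 fell by 0.27 and 0.27 on the log2 scale (adjusted p = 0.00915 and 0.00804, edgeR). Rassf5 and Vav1, an integrin regulator and a GTPase activator, fell by 0.21 and 0.18 (adjusted p = 0.0487 and 0.0470, edgeR). Of 15 homing and egress genes, 1 was called higher and 3 lower, with a median of -0.065, and with the block 3 and 6, against 13.3% and 6.05% of all genes, and 24.7% and 24.3% with the block. Fut7, which makes selectin ligands, went from 18.2 ± 1.58 to 7.11 ± 0.808 CPM (-1.36, adjusted p = 2.33e-06, edgeR). Klf2, an activator of egress genes, was higher by 0.59 (adjusted p = 0.0207), and Gpr183 and Itgb2 were lower (-0.53, adjusted p = 0.0292, and -0.20, adjusted p = 0.0297, edgeR).

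Of 11 transcription factors that regulate chemokine receptor genes in T cells, 4 were called higher and 0 lower, with a median of 0.23, and with the block 6 and 0. Over all genes the shares called higher were 13.3%, and 24.7% with the block. They are Eomes (0.997, adjusted p = 0.0339), Prdm1 (0.99, adjusted p = 4.08e-05), Zeb2 (0.87, adjusted p = 0.00986) and Klf2, which the homing list also holds. Of the other genes of the family outside the symbol rule, 1 was tested, Cklf, with a log2 fold change of 0.019, and 0 were called. The platelet ligands Pf4 and Ppbp were not tested.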

How the data were processed

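Libraries were made with a stranded TruSeq mRNA kit and read as 75-base single-end reads on a NextSeq 500, per the labels' protocols. The deposited counts per gene symbol are raw. The submitters' processing notes name the build GRCm38 (mm10) and the tools TopHat2 2.1.1, featureCounts, SAMtools 1.9, Trimmomatic 0.38 and FastQC 0.11.7, without their roles. The strand setting, the annotation and the handling of multi-mapping reads were not given in the sources used here. Counts were fitted with edgeR 4.0.16 in R 4.3.3 (filterByExpr, TMM, group alone, two-sided quasi-likelihood test, Benjamini-Hochberg over 11727 genes). No 2 libraries of a group matched within sampling noise (lowest chi-square over its degrees of freedom 4.94), so none looked like a repeat reading of another. Each was entered as 1 replicate. The check cannot tell separate animals from separate preparations of the same pool.

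The replicate numbers were checked by the correlation of deviations from group means, which was 0.213, 0.445, 0.286, 0.527, 0.317 and 0.847 for numbers 1 to 6. All were over 0.1, so the numbers were taken to pair libraries, though the labels give the numbers no meaning. EZH2i library 3 correlated best with DMSO library 2, and EZH2i library 5 with DMSO library 4. Without number 6 the lowest was 0.0371, under 0.1, and EZH2i library 5 still correlated best with DMSO library 4, so the pairing of the rest is not settled. The block fits and the comparisons of same-numbered libraries rest on this pairing. DESeq2 1.42.0, other scalings, no filter, the block and left-out libraries were alternatives. An item is not reported here: 62 symbols match the rule and 61 are described. The rule reads symbols alone, but the family and the lists were picked with earlier results of these data known. Every tested member is named, untested ones where a group holds at least 10 counts, and at most 4 called genes per list. Values per library are summarised as lowest, median and highest, and the plots show each one. Sequences are from RefSeq tables, GRCm38.p6.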

Additional observations from a re-analysis of the deposited data

Results flagged for a closer look

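The value of library 6 stood far from the other 5 libraries of its group in 11 of 34 groups of tested members, over 9 genes, and chance gives about 1 in 20. The share of such values over all tested genes was not counted. All 11 were in a library numbered 6. In DMSO 6, Xcl1 was low at 0.655 CPM (others 2.12 to 2.65), Ccr7 was low at 360 CPM (474 to 520), Cxcr5 was low at 1.37 CPM (5.25 to 7.31), Ccr10 was high at 0.893 CPM (0.0924 to 0.368) and Ccr4 was high at 17.7 CPM (4.47 to 9.04). In EZH2i 6, Cxcr4 was low at 67.8 CPM (192 to 222), Cxcl10 was low at 0.279 CPM (1.40 to 1.72), Cxcr5 was low at 0.495 CPM (3.71 to 5.09), Cxcr3 was low at 58.6 CPM (105 to 116), Ccr4 was high at 20.9 CPM (4.19 to 7.54) and Ccr2 was high at 48.2 CPM (23.1 to 25.0). Ccr4 and Cxcr5 stood apart in both groups, in the same direction each time. Library 6 also differed from the rest over genes at large, so the difference is not limited to the members. Chi-square over its degrees of freedom was 74.4 to 131 in DMSO pairs with library 6, and 4.94 to 41.0 in other DMSO pairs. In EZH2i it was 142 to 224 in pairs with library 6, and 5.42 to 23.0 in the others.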

How the results depend on the processing

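Of 323 alternative values of the 17 tested members, 287 kept their direction and side of the threshold, 0 lost the call, 26 gained it and 10 changed sign, the last in members that were not called. Upper-quartile scaling put Ccr4 at 0.030. Over the fits without 1 library, Ccr4 ran from -0.59 to 0.33, Ccr7 from -0.16 to 0.018, Ccl27a from -0.031 to 0.50, Ccl25 from -0.024 to 0.16 and Ccrl2 from -0.0072 to 0.23. With the replicate block, 6 members were called higher, 3 lower, 3 ligands, 6 receptors and 5741 genes in all. Without both libraries numbered 6 the counts were 6, 3, 3, 6 and 5270, and with both changes, a combination chosen after seeing the data, they were 6, 3, 3, 6 and 5907. Without the block 2266 genes were called. Members called lower numbered 2 under RLE scaling, 2 with no filter and 2 with DESeq2, which called 4 receptors. Leaving out 1 library gave 2 to 4 members called higher, 1 to 2 lower, 2 to 5 receptors and 1732 to 4079 genes. The 4 and the 4079 came without EZH2i library 6. The depth limits the 44 untested members. Ccr10, Ccr9, Ccl3 and Ccl4 rest on few counts.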
